A study of Mus musculus with 7 samples.

Results

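Fatty acid desaturases put double bonds into fatty acyl chains, and their transcripts were followed here in optic nerves whose oligodendrocyte (OL) lineage had lost fatty acid synthase (FASN). The members were taken by gene symbol from the families of stearoyl-CoA desaturases (Scd1, Scd2, Scd3 and Scd4) and of fatty acid desaturases (Fads1, Fads2, Fads3 and Fads6), and all 8 were among the 22880 genes of the deposited table. RNA was sequenced from optic nerves of C57Bl/6 mice at P14 (postnatal day 14), an age of active myelination in this tract. The labels give the 4 control mice as FASN lox/lox, with no Cre named, and the 3 mutant mice as olig2cre FASN lox/lox, so by the labels both groups carried the floxed alleles and the mutants also carried Cre. The study's methods also allow controls with a single floxed allele. They describe the floxed Fasn line as of mixed strain origin, with 3 or more generations of backcrossing to C57BL/6. Cre was driven from the Olig2 locus, active in the OL lineage from progenitors onward, and the effects of Cre itself and of the loss of FASN cannot be told apart between these groups. Both nerves of 1 mouse made 1 sample. Each value is a mean over OLs, their progenitors (OPCs), astrocytes, microglia, vessels and meninges, and in such bulk samples fewer cells of a type and less RNA per cell cannot be told apart.

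FASN makes palmitate, a saturated fatty acid, and the SCD enzymes turn palmitate and its elongated product stearate into monounsaturated acids such as oleate, a main acyl chain of myelin lipids. FADS2 and FADS1 act one after the other, with an elongation step between them, on essential fatty acids taken from the diet, and so lead to arachidonic acid and to the precursors of docosahexaenoic acid (DHA). These enzymes sit in the endoplasmic reticulum and receive electrons through cytochrome b5 and its reductase. Transcription of many of them is under the control of SREBP1 and liver X receptors and responds to the fatty acids of the cell.

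The libraries held 27452647 to 43462532 reads assigned to genes. Levels are given as FPKM, fragments scaled to library size and to the length of the deposited gene model. Comparisons of levels between genes depend on those lengths. Fasn was at 169 to 228 FPKM in the controls and 49.0 to 69.3 FPKM in the mutants, a log2 fold change of -1.86 ± 0.14 (SE; adjusted p = 0.00312 with limma-trend, Benjamini-Hochberg adjustment over all genes tested). Traces of tissue from around the nerve differed between libraries. Mutant 2 stood apart by skeletal muscle genes (summed FPKM of 6 markers 67.8, against at most 5.3 in any other library) and mutant 1 by meningeal fibroblast genes (summed FPKM of 6 markers 4273, against at most 2581).

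Of the 8 desaturase genes, 7 lie on chromosome 19 and 1 on chromosome 11. The 4 Scd genes form a cluster of 204 kb (chr19:44203288-44407709, GRCm38), with Scd3, Scd2 and Scd4 on the plus strand and Scd1 on the minus strand. Fads1, Fads2 and Fads3 form another cluster of 155 kb (chr19:10041548-10196870), and Fads6 lies apart from the other members at chr11:115279622-115297514. Fasn, the floxed gene, is on the same chromosome as Fads6, at chr11:120805940-120824178. No member overlapped another gene of the table. The main transcripts in GENCODE M21 have 6 exons for each Scd gene and for Fads6 and 12 exons for Fads1, Fads2 and Fads3, and the coding parts run from 342 codons (Fads6) to 449 codons (Fads3).

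The Scd genes are close copies of each other, and their sequences are shown because reads from near-identical parts have to be divided between genes that differ very strongly in level. Over the coding sequence Scd1 was 90.7% identical to Scd2, 91.5% to Scd3 and 85.6% to Scd4. The stretch of 60 coding bases below, starting at coding base 586 of Scd1, was the same in all 4 genes.

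Scd1, Scd2, Scd3 and Scd4: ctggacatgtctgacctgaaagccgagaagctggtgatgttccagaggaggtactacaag

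The stretch of 60 coding bases that differed most among the 4 genes starts at coding base 295 of Scd1. Capitals mark bases that differ from Scd1, of which there are 10 in Scd2, 18 in Scd3 and 17 in Scd4.
Scd1: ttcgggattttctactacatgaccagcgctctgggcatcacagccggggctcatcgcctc
Scd2: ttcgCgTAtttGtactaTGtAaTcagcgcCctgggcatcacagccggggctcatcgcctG
Scd3: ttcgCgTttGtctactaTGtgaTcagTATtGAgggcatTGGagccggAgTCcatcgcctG
Scd4: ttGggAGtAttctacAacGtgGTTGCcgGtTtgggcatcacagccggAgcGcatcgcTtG

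A read as long as the sequenced 125 bases would nonetheless name its gene almost everywhere. Only 1.78% of the windows of 125 bases in the Scd1 transcript, 0.431% of those in Scd2, 1.81% of those in Scd3 and none of those in Scd4 occurred exactly in a transcript of another gene. With windows of 50 bases, as after strong trimming, the shares were 4.66%, 4.01%, 6.66% and 6.32%. The Fads genes were less alike, with 72.1% identity between the coding sequences of Fads2 and Fads3, 68.3% between those of Fads1 and Fads2, and at most 62.3% between those of Fads6 and any other. None of their windows of 125 bases occurred in another gene.

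Levels of the members spanned several orders of magnitude in control nerves. Scd2, the stearoyl-CoA desaturase typical of brain, was by far the highest at 1157 ± 37.6 FPKM (SD, n = 4) and ranked 36 of all 22880 genes by control mean. Scd1, the form best known from liver and adipose tissue, followed with 199 ± 12.5 FPKM. Fads2 was at 154 ± 10.8 FPKM and Fads1 at 118 ± 3.04 FPKM, and in every control library Scd1 lay above Fads2 and Fads2 above Fads1 in FPKM. The order of Fads2 and Fads1 rests on the deposited gene model lengths, 1508 bases for Fads2 and 3456 bases for Fads1. Their main transcripts in GENCODE M21 have 3150 and 3460 bases. Fads2 had fewer reads than Fads1 in every library (9899 against 17787 in control 1). Scaled by those transcript lengths, Fads2 would lie below Fads1.

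The other members were low. Fads3, which acts on sphingolipid long chain bases, was at 5.25 ± 0.338 FPKM and Fads6 at 2.91 ± 1.22 FPKM, with Fads3 above Fads6 in each control. Scd3 was at 0.295 ± 0.0455 FPKM and Scd4 at 0.156 ± 0.0754 FPKM, and these neighbours in the order also kept their order in all 4 controls. In FPKM, mutant nerves had the same order of means, Scd2, Scd1, Fads2, Fads1, Fads3, Fads6, Scd3 and Scd4.

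**Figure D1:**
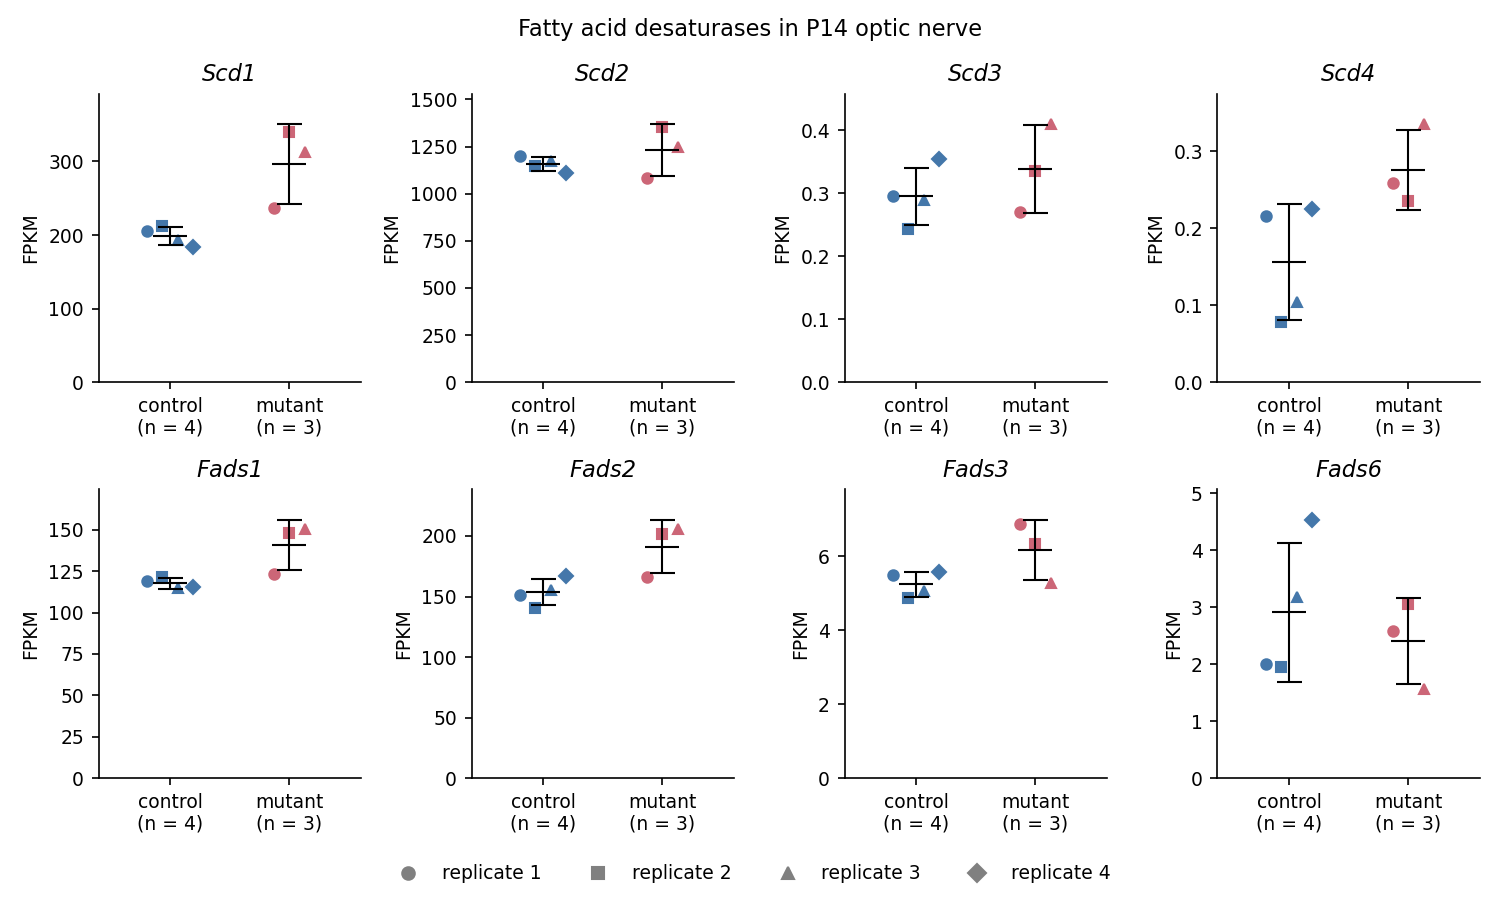
FPKM of each of the 8 desaturase genes (y axes from 0, a separate scale for each gene) in 4 control (blue) and 3 mutant (red) optic nerve samples, with the replicate number given by the marker shape and bars for the mean ± SD. The mutants lie above all controls for Scd1 (236 to 340 against 184 to 212), Fads1 and Scd4, and the groups overlap for the other genes.

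The comparison of mutant with control asks whether desaturase transcripts change when the OL lineage cannot make its own palmitate. Scd1 was higher in mutant nerves, and no other member passed the test. Of the 6 members with enough signal to be tested (0.5 FPKM or more in 3 or more samples), 1 was called at an adjusted p below 0.05, where 2.62% of all 13866 genes tested were called and 1.26% were called higher. In FPKM the groups did not overlap for 2 of these 6, Scd1 and Fads1, which was so for 21.1% of all genes tested. The median log2 fold change was 0.23 for the 6 members and 0.05 for all genes tested, and the sign was positive for 5 of the 6, as for 60.1% of all genes. Other call rules used below had other shares over all genes, 24.4% for an unadjusted p under 0.05, 8.36% for the fit with the replicate number as a block, 13.4% for DESeq2, 2.89% for the quasi-likelihood test of edgeR and 9.68% for its likelihood ratio test. The block pairs samples of equal number, a pairing taken from these same data and given by no label.

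Scd1 was at 206, 212, 193 and 184 FPKM in controls 1 to 4 and at 236, 340 and 313 FPKM in mutants 1 to 3. Every mutant lay above every control, but mutant 1 stood only slightly above control 2 whereas mutants 2 and 3 stood far above it. The means were 199 ± 12.5 FPKM (SD, n = 4) and 297 ± 53.8 FPKM (SD, n = 3), a ratio of 1.49. The log2 fold change was 0.56 ± 0.12 (SE), with a 95% interval of 0.29 to 0.83 and an adjusted p of 0.0480 (limma-trend), close to the threshold.

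The direction of Scd1 was the same under every setting tried, and the call was not. Over 17 alternatives the log2 fold change stayed between 0.45 and 0.72, and 7 of them gave an adjusted p below 0.05. On the scale of the deposited normalized counts, mutant 1 (36790) fell below control 2 (37370), the groups overlapped and the adjusted p was 0.0989. The call was lost with the quasi-likelihood test of edgeR on the reads (adjusted p = 0.0700) and held with DESeq2 (0.00324) and with the likelihood ratio test of edgeR (0.00717). It was lost without any 1 of the controls (0.0895 to 0.141), without mutant 2 (0.0553) and without mutant 3 (0.137), and held without mutant 1 (0.0105). With the replicate number as a block it held (0.0377). Over all genes, 2.62% were called as reported and 0.0433% to 0.844% without any 1 of the controls. Without mutants 1, 2 and 3 in turn the shares were 1.34%, 6.54% and 0.0433%. The same shares apply to the calls of other genes below when a sample was left out.

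**Figure D2:**
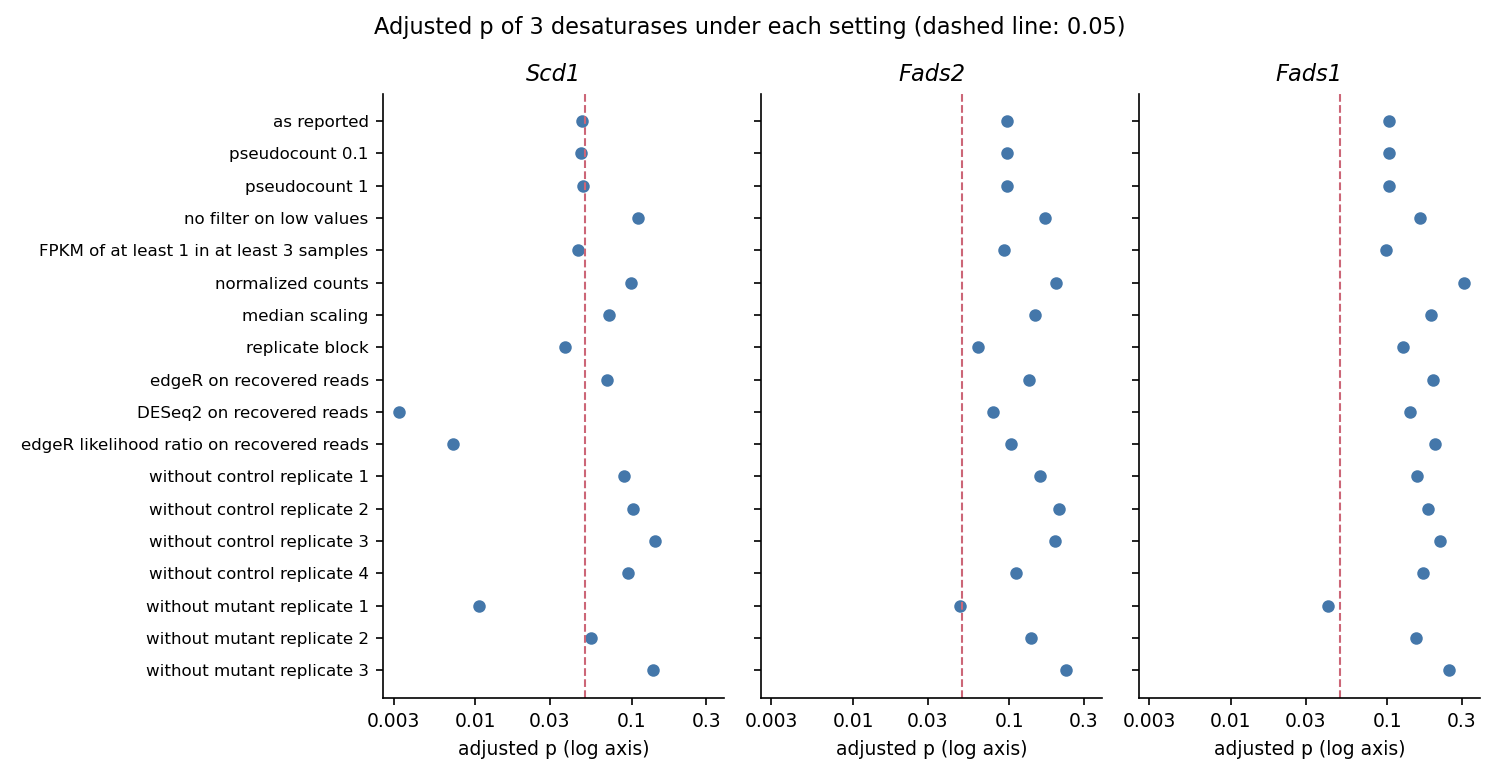
Adjusted p (x axis, log scale) of Scd1, Fads2 and Fads1 in the fit as reported and under 17 alternatives (y axis), each point 1 fit, with a dashed line at 0.05. Scd1 lies on both sides of the line, from 0.00324 to 0.141, whereas Fads1 and Fads2 cross it only without mutant replicate 1.

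Markers of cell types moved between the groups beside Scd1. All 7 of 7 astrocyte markers had a positive log2 fold change (median 0.55) and 3 were called higher, Aldh1l1, Slc1a2 and Aldoc. Their summed level was 2809 to 3189 FPKM in the controls and 3586 to 4413 FPKM in the mutants. Among the mutants it was lowest in mutant 1, as were Scd1 and the summed markers of mature OLs, newly formed OLs, OPCs and microglia. All 8 of 8 listed mature OL markers had a negative log2 fold change (median -0.21), with Mag called lower. Their summed levels were 33431 to 35734 FPKM in the controls against 24532 to 32503 FPKM in the mutants. The study counts Mag and Mobp of this list among transcripts of myelin-forming OLs. It also reports a subset of mature OL transcripts as higher in the mutants, such as Klk6, Sepp1 and Glul, which are not on this list.

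Markers of newly formed OLs summed to 884 to 960 FPKM in controls and 646 to 736 FPKM in mutants, with Gpr17 the 1 called lower of 6. Their log2 fold change was negative for 5 of 6 (median -0.35) and positive for Bmp4 (0.16). OPC markers summed to 145 to 169 FPKM and 130 to 157 FPKM, with Cspg4 the 1 called lower of 5. Of these, 4 of 5 had a negative log2 fold change (median -0.26) and Ptprz1 a positive one (0.08). Markers of microglia (233 to 280 against 264 to 304 FPKM), endothelial cells (144 to 169 against 173 to 200 FPKM) and meningeal fibroblasts (1717 to 2286 against 2188 to 4273 FPKM) also had mostly positive log2 fold changes. The sign was positive for 6 of 7, 6 of 6 and 6 of 6, with medians of 0.17, 0.34 and 0.57. No gene of these lists was called by limma-trend among 7, 6 and 6 tested. An unadjusted p under 0.05 was seen for 3, 4 and 4 (24.4% of all genes), and DESeq2 called 0, 3 and 3 (13.4% of all genes). With the replicate number as a block, which called 8.36% of all genes, the calls were 5 of 7 astrocyte, 3 of 6 newly formed OL, 2 of 5 OPC and 0 of 8 mature OL markers, and 1 of 7 microglia, 2 of 6 endothelial and 4 of 6 meningeal fibroblast markers were then called higher. DESeq2 called 6 of 7 astrocyte, 4 of 6 newly formed OL, 2 of 5 OPC and 3 of 8 mature OL markers, against 13.4% of all genes. The part of these shifts in cell type markers in the level of Scd1 was not tested.

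Adipocytes are rich in Scd1. Their 8 markers together reached at most 1.95 FPKM in any library, Lep was at 0 in all of them and Adipoq at most at 0.214 FPKM. Skeletal muscle markers (2.44 to 3.39 FPKM in controls and 3.30 to 67.8 FPKM in mutants) were high in mutant 2, the library with the most Scd1, and without it the log2 fold change of Scd1 was 0.45. Schwann cell markers (2.73 to 6.87 against 2.45 to 8.89 FPKM) and retina markers (9.30 to 12.5 against 11.6 to 16.03 FPKM) were low in both groups, and none of the genes tested in these 4 lists was called by limma-trend or DESeq2, with an unadjusted p under 0.05 for 1, a muscle gene. The likelihood ratio test of edgeR called both of the 2 tested muscle genes. The part of adipocyte or muscle tissue in the level of Scd1 was not tested.

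**Figure D3:**
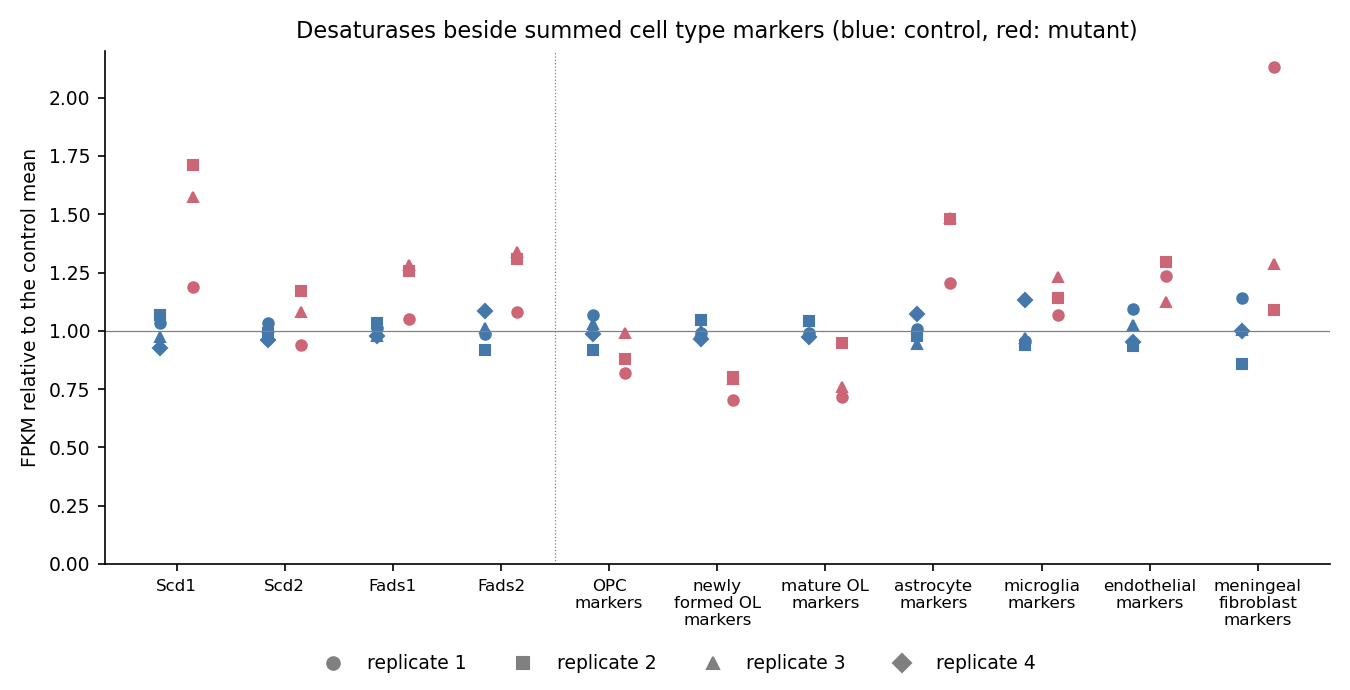
Level relative to the control mean (y axis, from 0) of 4 desaturase genes (left of the dotted line) and of the summed FPKM of 7 marker lists (right), 1 point for each sample, in blue for controls and red for mutants. Scd1, Fads1 and the astrocyte and endothelial markers are above all controls in all 3 mutants, and the markers of mature and newly formed OLs are below all controls.

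Scd2 did not pass the test. It was at 1197, 1145, 1174 and 1110 FPKM in controls 1 to 4 and at 1084, 1356 and 1250 FPKM in mutants 1 to 3. Mutant 1 was below all controls, and mutants 2 and 3 were above all of them. The log2 fold change was 0.08 ± 0.09 (SE; adjusted p = 0.611, limma-trend), with a 95% interval from -0.12 to 0.29 that leaves room for a small change either way.

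Scd1 made up a larger part of the Scd transcripts in each mutant than in any control. The ratio of Scd1 to Scd2 FPKM was 0.172, 0.185, 0.165 and 0.166 in controls 1 to 4 and 0.218, 0.251 and 0.251 in mutants 1 to 3. All 3 mutants were above all 4 controls, with a log2 difference of 0.48. The exact permutation test gave p = 0.0571 (two-sided), the smallest that 4 samples against 3 can give, and p = 0.171 after adjustment over the 3 sums and ratios tested. The log2 difference stayed between 0.44 and 0.55 when any 1 library was left out, and since both genes come from the same library it does not depend on how libraries were scaled.

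As a share of the FPKM of the 4 Scd genes, Scd1 made up 14.7% ± 0.685 (SD, n = 4) in controls and 19.3% ± 1.24 (SD, n = 3) in mutants, and Scd2 made up 85.3% ± 0.680 and 80.6% ± 1.24. The sum itself was 1403, 1358, 1368 and 1295 FPKM in controls and 1321, 1697 and 1564 FPKM in mutants. These groups overlapped, with mutant 1 inside the range of the controls (log2 difference 0.16, exact permutation p = 0.229, two-sided).

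**Figure D4:**
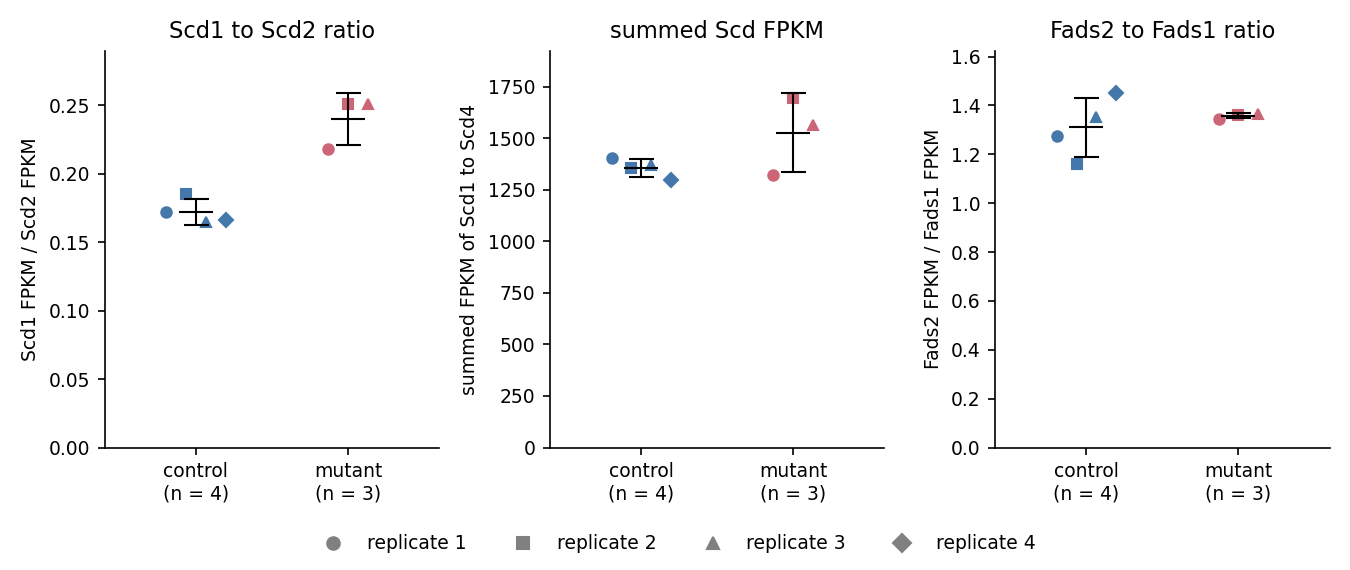
Ratio of Scd1 to Scd2 FPKM (left), summed FPKM of Scd1 to Scd4 (middle) and ratio of Fads2 to Fads1 FPKM (right) in each sample, with y axes from 0, markers for replicate numbers and bars for the mean ± SD of 4 controls and 3 mutants. The mutants lie above all controls only in the ratio of Scd1 to Scd2 (0.218 to 0.251 against 0.165 to 0.185).

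Scd3 and Scd4, known mainly from skin and heart, were near the limit of detection and below the minimum for the test. Scd3 was at 0.243 to 0.354 FPKM in controls and 0.270 to 0.409 FPKM in mutants, from 33 to 44 reads in each library, and the groups overlapped. Scd4 was at 0.215, 0.0779, 0.105 and 0.225 FPKM in controls 1 to 4 and at 0.258, 0.235 and 0.335 FPKM in mutants 1 to 3. The mutants were above all controls, but each value rested on only 7 to 21 reads. In a limma-trend fit with no filter on low values the log2 fold changes were 0.07 for Scd3 (adjusted p = 0.626) and 0.25 for Scd4 (adjusted p = 0.239, unadjusted p = 0.0392). Neither passed in this fit, which called 0.492% of all genes. The 0.5 FPKM added before taking logs exceeds every Scd4 value, so the change of Scd4 is understated there. In the same libraries Scd2 had 187190 to 282965 reads, and the share of the few Scd3 and Scd4 reads that came from it or from Scd1 was not tested.

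Fads1 and Fads2, which desaturate polyunsaturated acids, were both somewhat higher in the mutants without passing the adjusted threshold. Fads2 was at 152, 141, 156 and 167 FPKM in controls 1 to 4 and at 166, 201 and 206 FPKM in mutants 1 to 3. Mutant 1 was just below control 4, and mutants 2 and 3 were above all controls. The log2 fold change was 0.31 ± 0.09 (SE; adjusted p = 0.0959, limma-trend), with a 95% interval of 0.10 to 0.51.

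Fads1 was at 119, 121, 115 and 115 FPKM in controls 1 to 4 and at 123, 148 and 151 FPKM in mutants 1 to 3. The groups did not overlap in FPKM, although mutant 1 was only slightly above control 2. On the scale of the deposited normalized counts mutant 1 (13720) fell below every control (13810 to 15270), and the adjusted p was 0.311 (limma-trend). In FPKM the log2 fold change was 0.25 ± 0.08 (SE; adjusted p = 0.102, limma-trend), with a 95% interval of 0.08 to 0.43. In the same test without mutant 1, both Fads1 (0.34, adjusted p = 0.0419) and Fads2 (0.41, adjusted p = 0.0485) passed, making 3 members called. Mutant 1 was the lowest mutant for Scd1, Scd2, Fads1 and Fads2, and it was also the library with the most meningeal fibroblast signal. The part of that signal in these values was not tested.

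The balance of the 2 genes was alike in all mutants. The ratio of Fads2 to Fads1 FPKM was 1.28, 1.16, 1.35 and 1.45 in controls 1 to 4 and 1.35, 1.36 and 1.36 in mutants 1 to 3. The size of this ratio depends on the deposited gene model lengths, whereas the log2 difference between the groups does not. The mutants lay within the range of the controls, with a log2 difference of 0.06 (exact permutation p = 0.571, two-sided; adjusted over the 3 sums and ratios, p = 0.571).

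Fads3 was at 5.50, 4.87, 5.07 and 5.57 FPKM in controls 1 to 4 and at 6.88, 6.33 and 5.29 FPKM in mutants 1 to 3. Here mutant 1 was the highest and mutant 3 lay among the controls. The log2 fold change was 0.21 ± 0.11 (SE; adjusted p = 0.261, limma-trend), with a 95% interval from -0.03 to 0.45.

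Fads6 varied most from sample to sample among the members tested, at 2.00, 1.94, 3.18 and 4.52 FPKM in controls 1 to 4 and 2.58, 3.06 and 1.57 FPKM in mutants 1 to 3. Control 4 was the highest and mutant 3 the lowest, and the other samples of both groups were mixed. Its log2 fold change was -0.20 ± 0.28 (SE; adjusted p = 0.692, limma-trend), with a 95% interval from -0.83 to 0.43. The sign turned positive without control 4 (0.0060), without mutant 3 (0.024) and with the replicate number as a block (0.0060), a fit in which control 4 has no partner.

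Scd1 and Fads1 were the most alike in pattern among the members. Across the 7 samples, log2 levels of Scd1 and Fads1 had a Pearson r of 0.98, those of Fads1 and Fads2 an r of 0.87, and those of Scd1 and Fads2 an r of 0.85. Scd2 had an r of 0.77 with Scd1, 0.77 with Fads1 and 0.65 with Fads2. Mutant 1 was the lowest sample of all 7 for Scd2, although in FPKM it lay above every control for Scd1 and Fads1. Fads3 was less alike to Scd1 (0.38) and to Scd2 (0.02). Each of these is a description over 7 points that share library, tissue makeup and the difference between groups.

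Among the 9451 genes tested with a mean of at least 5 FPKM, the genes most alike in pattern to Scd1 were Man1b1 (r = 0.98), Fads1 itself (0.98) and Fam102b (0.98). Those most alike to Fads1 were Wasf3, Mzt1 and Scd1 (0.98 each), and those most alike to Fads2 were Hcn2 (0.99), Elmo2 (0.98) and Ednrb (0.98). The list for Scd2 was Emc7 (0.99), Ppfia2 (0.99) and Agtpbp1 (0.98), and the list for Fads3 was Plekha2 (0.99), Cldn12 (0.98) and Lpcat3 (0.97).

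No gene close to the members on the chromosome passed the test. Within 200 kb of the Scd cluster, 0 of 8 tested neighbours were called, with log2 fold changes from -0.18 to 0.27. The nearest on each side were Pkd2l1 (0.27, adjusted p = 0.358, limma-trend) and Wnt8b (0.11, adjusted p = 0.752). Around Fads1 to Fads3, 0 of 8 were called, with log2 fold changes from -0.34 to 0.49, and the nearest were Rab3il1 (0.49, adjusted p = 0.106) and Fen1 (-0.13, adjusted p = 0.514). With the replicate block Rab3il1 was called higher (adjusted p = 0.0442), the 1 of these 8. The smallest p of the 8 was that of Myrf, a transcription factor of myelinating OLs, at 183 to 204 FPKM in controls and 142 to 170 FPKM in mutants. Its groups did not overlap (-0.34, adjusted p = 0.0522, and 0.0787 with the replicate block), and it was named after its values were seen. Around Fads6, 0 of 14 were called, and the nearest tested were Fdxr (-0.02, adjusted p = 0.899) and Hid1 (-0.07, adjusted p = 0.554). Unadjusted p-values under 0.05 numbered 0, 2 and 3 around the Scd cluster (of 8), Fads1 to Fads3 (of 8) and Fads6 (of 14), where 24.4% of all genes had one, and DESeq2 called 0, 2 and 1, against 13.4% of all genes.

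Among the genes that pass electrons to desaturases, 0 of 6 tested were called, with a median log2 fold change of 0.02 against 0.05 for all genes. The 2 with the smallest p went in opposite directions. Cyb5a, the microsomal cytochrome b5, was at 160 to 193 FPKM in controls and 121 to 145 FPKM in mutants. The groups did not overlap, and the log2 fold change was -0.39 ± 0.09 (SE; adjusted p = 0.0574, limma-trend), just beyond the threshold. With the replicate number as a block Cyb5a was the 1 gene of the 6 called, lower (adjusted p = 0.0251), and it was also the 1 called by DESeq2 and the 1 with an unadjusted p under 0.05. Cyb5r1, a cytochrome b5 reductase, had a log2 fold change of 0.22 (adjusted p = 0.257).

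Of 8 tested genes for other lipid desaturases and hydroxylases of the same kind, 1 was called, higher, with a median of 0.11. This was Agmo, the monooxygenase that cleaves ether lipids, at 6.47 to 7.58 FPKM in controls and 9.32 to 10.4 FPKM in mutants (0.44 ± 0.08, adjusted p = 0.0374, limma-trend). The call was lost in 8 of 17 alternatives, on normalized counts (0.0521), with no filter (0.0653) and without any 1 sample other than mutant 2 (0.0652 to 0.122). The next smallest p was that of Ch25h, which makes an oxysterol from cholesterol, at 0.604 to 0.875 FPKM in controls and 1.08 to 1.45 FPKM in mutants (0.46, adjusted p = 0.0999). Degs1, which puts the double bond into ceramide, and Fa2h, which hydroxylates the fatty acids of myelin galactolipids, did not pass the test (-0.17, adjusted p = 0.149, and 0.09, adjusted p = 0.516). They were named after their values were seen. Of the 8 genes, 3 had an unadjusted p under 0.05 (24.4% of all genes) and DESeq2 called 1 (13.4% of all genes).

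Among the 9 genes that supply saturated acyl-CoA, 2 were called, Fasn lower and Thrsp higher. Fasn is the gene deleted in the mutants, so its call was set by the design. Thrsp, which promotes lipid synthesis in several tissues, was at 16.1 to 19.6 FPKM in controls and 22.6 to 26.5 FPKM in mutants (0.45 ± 0.09, adjusted p = 0.0388, limma-trend). This call was lost in 9 of 17 alternatives, among them normalized counts (0.0729), median scaling (0.0534), the quasi-likelihood test of edgeR (0.0546), no filter (0.0789), and leaving out any 1 control (0.0676 to 0.0986) or mutant 3 (0.111). With the replicate block (8.36% of all genes called) 4 of the 9 were called, Mid1ip1 higher and Me1 lower beside Fasn and Thrsp. An unadjusted p under 0.05 was seen for 7 of the 9, Fasn among them, against 24.4% of all genes. DESeq2 called 6, against 13.4%, and the likelihood ratio test of edgeR called 5, against 9.68%. Of 12 genes of chain elongation, which lengthens the substrates and products of the desaturases, 1 was called, higher. This was Hacd4, a dehydratase of the elongation cycle, at 6.24 to 7.22 FPKM in controls and 9.62 to 12.6 FPKM in mutants (0.63 ± 0.10, adjusted p = 0.0265). The call was lost in 6 of 17 alternatives, with no filter (0.0620) and without any 1 control (0.0563 to 0.0981) or mutant 3 (0.0857). With the replicate block 2 of the 12 were called, Hacd4 higher and Elovl4, an elongase of very long chains, lower. Of the 12, 5 had an unadjusted p under 0.05, DESeq2 called 3 and the likelihood ratio test of edgeR called 2.

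None of the 20 regulators tested was called by limma-trend, with a median of 0.14 and a positive sign in 16. The smallest p belonged to Insig2, which holds the SREBP complex in the endoplasmic reticulum (0.40, adjusted p = 0.0627), and Srebf1, which codes for SREBP1, followed (0.50, adjusted p = 0.0815). Insig2 was at 41.4 to 44.6 FPKM in controls and 51.2 to 67.9 FPKM in mutants. Srebf1 was at 22.9 to 35.7 FPKM in controls and 36.8 to 41.9 FPKM in mutants. Neither gene's groups overlapped, and with the replicate number as a block both were called higher (adjusted p = 0.0372 and 0.0235), 2 of the 20, close to the 8.36% of all genes called in that fit. Control 4, the control with the most Srebf1, has no partner in it, and the log2 fold change of Srebf1 was 0.63 both with the block and without control 4 (adjusted p = 0.0372 without it). An unadjusted p under 0.05 was seen for 6 of the 20, against 24.4% of all genes, DESeq2 called 3, against 13.4%, and the quasi-likelihood test of edgeR called 0.

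Among 18 enzymes that use the acyl-CoA products for phospholipids, triglycerides and cholesterol esters, 1 was called, higher. This was Lpcat1, which puts acyl chains back on lysophosphatidylcholine, at 30.6 to 36.8 FPKM in controls and 45.2 to 62.2 FPKM in mutants (0.67 ± 0.11, adjusted p = 0.0272, limma-trend). The call was lost in 6 of 17 alternatives, with no filter (0.0704) and without any 1 control (0.0606 to 0.0823) or mutant 3 (0.0852). With the replicate block Soat1, which makes cholesterol esters, was also called higher, 2 of the 18. An unadjusted p under 0.05 was seen for 9 of the 18, against 24.4% of all genes. DESeq2 called 7, against 13.4%, and the likelihood ratio test of edgeR called 5, against 9.68%. None of 6 tested genes of the peroxisomal step to DHA was called by limma-trend, edgeR or DESeq2 or had an unadjusted p under 0.05, with a median log2 fold change of -0.01.

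**Figure D5:**
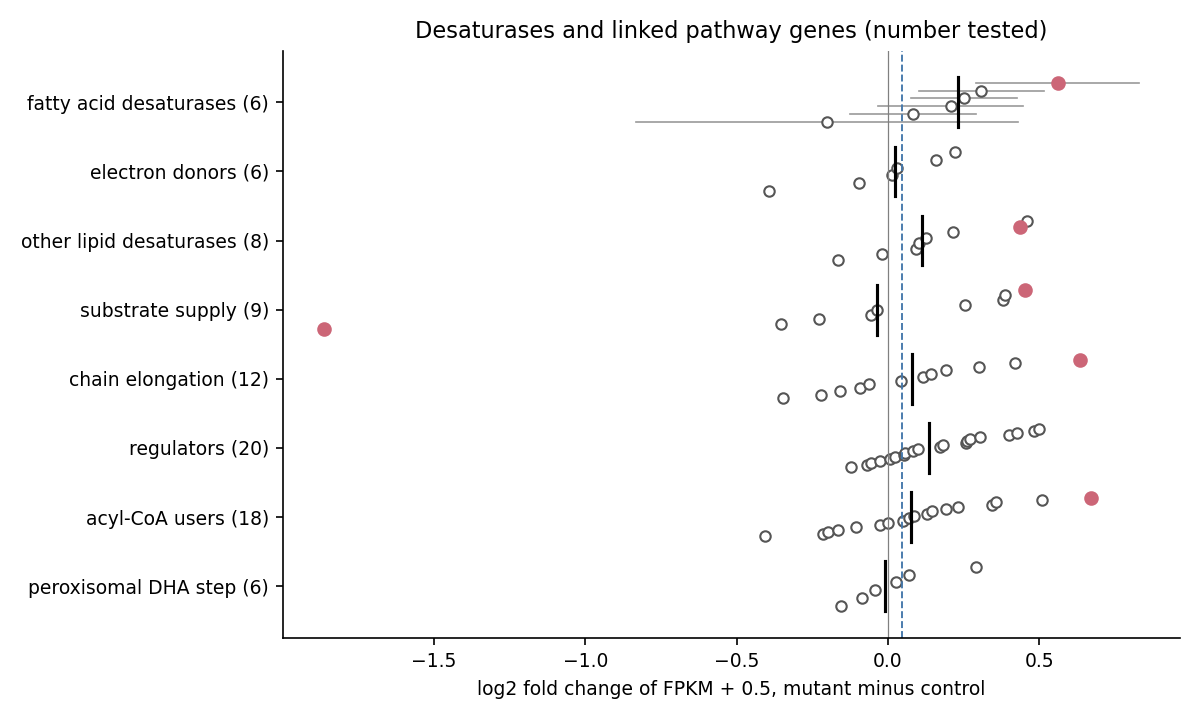
Log2 fold change of FPKM + 0.5, mutant minus control (x axis), of the 6 desaturases tested and of the genes of 7 linked lists (y axis, number tested in brackets), with filled red points for genes called, black bars for medians, gray lines for the 95% intervals of the desaturases and a dashed blue line for the median of all genes (0.05). The desaturase median is 0.23, Scd1 is the called member at 0.56, and Fasn lies far to the left at -1.86.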

How the data were processed

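Polyadenylated RNA of 7 P14 optic nerve samples was sequenced in single end mode, and the authors aligned reads with STAR (2.5.1b) to GRCm38 and estimated gene levels with RSEM (1.2.22). The authors deposited for each gene and sample a normalized count, a signal made by dividing RSEM estimates by a size factor, and an FPKM value scaled for gene length and library size. The deposited GC content, a fraction, was not tested, and the authors' own fold changes and p-values were not used. Whole reads were recovered from the steps of low normalized counts (73.3% to 79.3% of values of 0.5 to 10 reads were whole within 0.02 read, the rest being fractional RSEM estimates), and the rounded reads served for depth and count tests.

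The test was limma-trend (limma 3.58.1, R 4.3.3) on log2(FPKM + 0.5) with genotype as the only term, for genes at 0.5 FPKM or more in at least 3 samples. P-values were adjusted by Benjamini-Hochberg over 13866 genes, and genes below 0.05 were called. Changes of low genes are understated on this scale. Sums and ratios were tested by exact permutation (scipy). Alternatives were pseudocounts of 0.1 and 1, other filters, normalized counts, median scaling, the replicate block, edgeR 4.0.16, DESeq2 1.42.0 and leaving out each sample. The fits were also run on simulated counts with the same dispersion (0.01) for all genes and no pairing or tissue differences. That run does not show the error rates in these libraries. Labels do not say what replicate numbers stand for. Deviations from the group means were correlated across genes between equal numbers (0.168, 0.409 and 0.270 for the 3 pairs). Between unequal numbers the correlations were -0.353 to 0.205, and mutant 1 was closest to control 4. The numbers were taken to pair the samples on these same data, so calls with the replicate block rest on a pairing that no label gives. Where samples share a litter is not given, and p-values measure the spread between these samples. Coding sequences come from GENCODE M21 (GRCm38) and were aligned with Biopython 1.88. The pathway and marker lists were written by hand, and 1 listed gene (Faxdc2) had no match in the table. Named are the members, Fasn, every list gene called, the 2 smallest p-values in 4 lists, the nearest tested neighbours within 200 kb and the 3 genes most alike to each higher member. Myrf and the genes called only with the replicate block were named after their values were seen. The members and lists were chosen with earlier results of these data known.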

Additional observations from a re-analysis of the deposited data

How the results depend on the processing

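The number of desaturases called was 1 as reported. It was 0 with no filter on low values, on normalized counts, with median scaling and with the quasi-likelihood test of edgeR (edgeR called 0 although 401 of all genes passed, and 3 members had an unadjusted limma-trend p under 0.05), and it ran from 0 to 3 when 1 sample was left out. With the replicate block it was 1, and the block changed no call of a member. The count over all genes, 363 as reported, was 95 with no filter, 1159 with the replicate block, 1708 with DESeq2 and 1342 with the likelihood ratio test of edgeR (chosen after seeing the data), and from 6 to 907 when 1 sample was left out. The share of higher calls among all called genes was 48.2% as reported, 27.8% on normalized counts, 38.1% with median scaling and 76.8% with the replicate block. Among the genes named, the sign turned for Fads6 (-0.20 as reported), to 0.0060 with the replicate block, and its log2 fold change ran from -0.37 to 0.024 when 1 sample was left out. Over the genes named, 216 values under other settings kept both direction and side of the threshold, 39 lost the call and 14 gained it. For the sums and ratios, the replicate block gave log2 differences of 0.46 (Scd1 to Scd2), 0.14 (summed Scd) and 0.11 (Fads2 to Fads1), with no p below 0.25 possible for 3 pairs. The causes of these changes were not tested. Depth limits Scd3 and Scd4, with 7 to 44 reads in each library.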
